A study of Homo sapiens with 4 samples.

Results

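The 46 genes described here encode the enzymes that build cholesterol and fatty acids, the proteins that set how much of those enzymes a cell makes, and the proteins that move, store and burn the lipids. They were taken by symbol from a list of such genes that was drawn up with earlier results of these data known, and all 46 were found among the 23228 genes of the count tables. All 46 also passed the filter on low counts. The cells were MDA-MB-231, a human triple negative breast cancer line. Cells with high aldehyde dehydrogenase activity had been sorted with the ALDEFLUOR assay as cancer stem cells and grown in MammoCult medium. They stably expressed a lentiviral control shRNA or a lentiviral KDM1A shRNA, with 2 libraries in each group and 23902900 to 26923678 gene reads per library. KDM1A is a histone lysine demethylase also known as LSD1. The labels name a single KDM1A shRNA and no rescue, and they do not state whether the duplicates are separate cultures. Spread between duplicates, on which every p-value rests, may therefore be technical.

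Cholesterol is assembled from acetyl-CoA through mevalonate, farnesyl diphosphate, squalene and lanosterol, and fatty acids are built from the same acetyl-CoA through malonyl-CoA. Both routes are switched on by SREBP transcription factors, which leave the endoplasmic reticulum with their escort SCAP when sterols are scarce and are held back by INSIG proteins when sterols are plentiful. Surplus cholesterol is exported by ABC transporters under the control of liver X receptors, and surplus fatty acid is stored as triglyceride in lipid droplets coated by perilipins.

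Before the lipid genes, the targeted gene and the identity of the cells were checked. KDM1A stood at 174 and 167 CPM (read counts scaled to library size with TMM factors) with control shRNA and at 23.4 and 25.2 CPM with KDM1A shRNA, 14.2% of control. Markers of the line, VIM, CD44, ANXA1, AXL, MSN, LGALS1, CAV1 and PLAUR, summed to 5795 and 5769 CPM in the controls and to 6591 and 6653 CPM after knockdown. Of these 8, 4 rose, CAV1 the most at 210.5% of control, and 4 fell, PLAUR the most at 79.4%. ESR1 and PGR had at most 9 reads and ERBB2 1672 to 2384. Of 6 adipocyte markers, ADIPOQ and LEP had at most 1 read in any library and the summed level of all 6 was 9.32 to 10.6 CPM in the controls and 9.69 to 10.7 CPM after knockdown. The leukocyte marker PTPRC had 2 to 4 reads. The summed level of PTPRC, CD14, CSF1R and CD68 was 181 and 184 CPM in the controls against 133 and 130 CPM, nearly all of it CD68, which fell with CD14, whereas CSF1R rose from 43 and 50 reads to 131 and 145. The fibroblast markers COL1A1, COL1A2, PDGFRA and PDGFRB summed to 20.0 and 21.4 CPM in the controls and to 45.6 and 44.1 CPM after knockdown, with COL1A1 and PDGFRB higher and PDGFRA lower. The endothelial markers PECAM1, CDH5 and VWF all fell, from a sum of 27.7 and 27.3 CPM to 21.6 and 22.2 CPM. Of the hepatocyte markers ALB, APOA1 and TTR, TTR had 0 reads in every library and the others at most 5. The part of these marker differences in the lipid gene results was not tested. CDKN2A, CDKN2B and MTAP, genes of band 9p21 where MDA-MB-231 is known to carry a deletion, together held 621 and 616 reads with control shRNA but 28 and 34 with KDM1A shRNA. Both control libraries thus went against the known genotype of the line at these genes, so no comparison without such a control could be made. The part of this difference in the results that follow was not tested.

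Fatty acid synthesis and lipid storage genes were mostly lower after KDM1A knockdown, by modest amounts, and cholesterol synthesis genes moved both ways. Of the 46 genes, 26 fell and 9 rose at an adjusted p under 0.05 (edgeR's quasi-likelihood test with Benjamini-Hochberg adjustment over 14012 genes), and 11 did not pass. Thus 56.5% of the members fell, where 28.8% of all tested genes did, and 19.6% rose, where 27.3% of all tested genes did. Among the 18 cholesterol synthesis enzymes, 8 fell (44.4%), 6 rose (33.3%) and 4 did not pass. The median log2 fold change (KDM1A shRNA over control shRNA) was −0.16 over the members and 0.00 (−0.0047) over all tested genes. By a log2 change of 0.5 or more, 7 of the 46 members fell, a share near the 13.8% of all tested genes. Only PMVK rose by that much, where 8.72% of all tested genes did. By 2-fold or more, 2 of the 46 fell, ABCG1 and ACSL4, a smaller share than the 8.54% of all tested genes. No member rose by 2-fold or more (3.07% of all tested genes). In 30 of the 35 called members the change was under 1.5-fold, and the 2 groups of libraries did not overlap in 41 of the 46 members, a share of 89.1% against 77.7% of all tested genes. The members were abundant transcripts, with 24 of the 46 at or above percentile 95 of the tested genes by CPM. With all 14012 genes in the fit, 56.1% of the genes and 76.1% of the members were called in either direction. In a refit on the 10781 genes with a mean of at least 5 CPM, 58.1% of the genes were called, 3111 higher and 3148 lower. Of the 44 members in that refit, 7 were higher and 25 lower. A floor of 5 CPM does not match the high level of the members, so the part of level in their share was not tested. Summed over the 46 genes, the level was 22331 and 22311 CPM in the control libraries and 18831 and 18871 CPM after knockdown, 84.5% of control. SCD, SC4MOL, ACSL4, INSIG1 and FASN together made up 63.0% of that net difference.

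The direction of the smallest changes depended on scaling. Of 32 marker genes of the line, 19 were called higher and 10 lower with TMM. In an alternative scaling, the median change of these 32 genes was set to 0. Every log2 fold change then moved down by 0.19 and the median of all genes became −0.20. All 26 members called lower stayed lower under that scaling, which the downward shift of every gene made sure in advance. Of the 9 called higher, 5 stayed higher (MVK, PMVK, NPC2, ELOVL1 and CPT1A). The split became 36 lower and 5 higher, where 7145 of all 14012 tested genes were lower and 1817 higher. Rises thus made up 12.2% of the members' calls, against 25.7% with TMM. The 10 members added to the falls were HMGCS1, LSS, HSD17B7, EBP, SREBF1, CD36, ACACA, ELOVL5 and PLIN3, which had not passed, and SC5DL, which had been called higher. For all genes the share of rises among calls went from 48.7% to 20.3%.

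**Figure D1:**
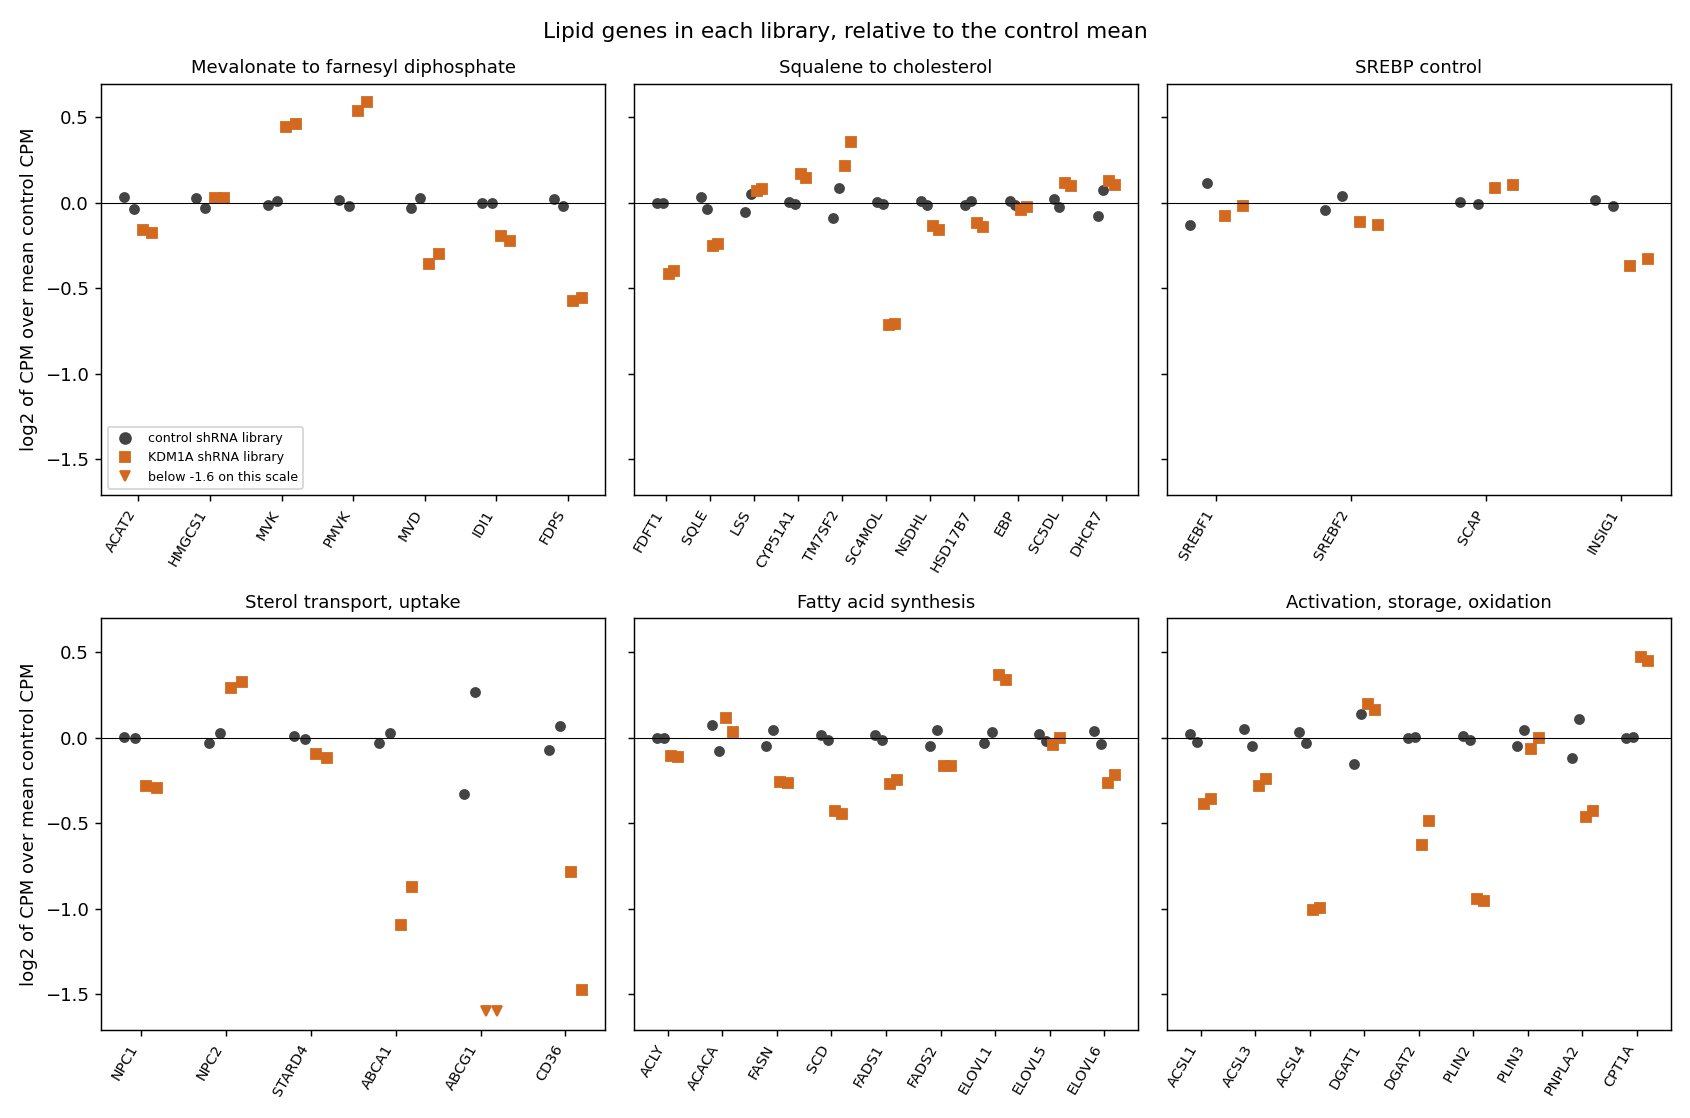
Each point is 1 library, drawn as the log2 of its CPM over the mean control CPM of that gene (vertical axis), for the 46 genes in 6 groups by role. KDM1A shRNA libraries (squares) sit below both controls (circles) for SC4MOL, FDPS, ACSL4, PLIN2 and ABCA1 and above both for MVK, PMVK, NPC2, ELOVL1 and CPT1A. The ABCG1 knockdown libraries lie below the scale and are drawn as triangles.

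The early enzymes of cholesterol synthesis, from acetyl-CoA to farnesyl diphosphate, moved in both directions. Of 7 members 4 fell, 2 rose and 1 did not pass (median −0.17). The falls were 57.1% of the group, where 28.8% of all tested genes fell. The rises were 28.6%, near the 27.3% of all tested genes. The largest fall was in FDPS, farnesyl diphosphate synthase (chromosome 1, 155278539 to 155290457, plus strand, GRCh37), which had 757 and 735 CPM in the controls and 500 and 507 CPM after knockdown. Both knockdown values lay far below both control values (log2 fold change −0.57, SE 0.03, edgeR adjusted p = 4.6e-09). FDPS has near-identical pseudogene copies that could share its reads, which makes its value less certain. MVD, which decarboxylates mevalonate diphosphate to the first isoprenoid unit, fell from 142 and 148 CPM to 113 and 118 CPM (−0.33, SE 0.04). The isomerase IDI1 (−0.21) and the acetoacetyl-CoA thiolase ACAT2 (−0.17) fell less. ACAT2 missed the threshold with KDM1A shRNA library 2 left out (edgeR adjusted p = 0.059), and its exons overlap those of TCP1 on the opposite strand by 454 bases, so their reads could not be told apart without strand.

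The kinases of the same stretch went the other way. MVK, mevalonate kinase (chromosome 12, 110011060 to 110035930, plus strand), had 107 and 109 CPM in the controls and 148 and 149 CPM after knockdown (0.45, SE 0.04, edgeR adjusted p = 3.7e-07). PMVK, phosphomevalonate kinase (chromosome 1, 154897216 to 154909195, minus strand), had 26.8 and 26.1 CPM against 38.4 and 39.7 CPM (0.56, SE 0.06), the largest rise among the 46 genes. MVK and PMVK, the steps just before MVD, thus rose while MVD, IDI1 and FDPS fell. HMGCS1, HMG-CoA synthase, had 1220 and 1171 CPM against 1218 and 1219 CPM and did not pass (0.03, SE 0.03, edgeR adjusted p = 0.52). Its groups overlapped. HMGCS1 passed as higher without control library 1 (0.06, edgeR adjusted p = 0.013) and as lower after the rescaling (−0.17).

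Of the 11 members from squalene to cholesterol, 4 fell, 4 rose and 3 did not pass (median −0.03). The shares of 36.4% each way lie near the 28.8% and 27.3% of all tested genes, so the split itself sets these members little apart. SC4MOL, now named MSMO1, encodes the sterol C-methyl oxidase that begins removal of the methyl groups of lanosterol derivatives (chromosome 4, 166248819 to 166264316, plus strand). It had 1534 and 1521 CPM in the controls and 930 and 934 CPM with KDM1A shRNA. This was 61.0% of control (−0.71, SE 0.03, edgeR adjusted p = 1.7e-10). The libraries of each group lay close together and the groups lay far apart. This was the largest change among the cholesterol enzymes, in the member with the highest level per length: 686 ± 4.17 RPKM (CPM per kilobase of the canonical transcript; SD, 2 libraries) in the controls and 419 ± 1.02 RPKM after knockdown, first in order in both groups.

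FDFT1, squalene synthase, the first enzyme committed to sterols, fell from 895 and 892 CPM to 671 and 677 CPM (−0.41, SE 0.03, edgeR adjusted p = 9.4e-08). SQLE, squalene epoxidase, fell from 277 and 263 CPM to 227 and 229 CPM (−0.25, SE 0.04). NSDHL, which acts beside SC4MOL in demethylation, fell by 0.15 on the log2 scale, a call lost without KDM1A shRNA library 1 (edgeR adjusted p = 0.083) or library 2 (0.14). FDPS, FDFT1 and SQLE are consecutive in the pathway, and all 3 were called lower under all 12 alternative settings.

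The rises in this stretch were small and less stable. The lanosterol demethylase CYP51A1 went from 493 and 488 CPM to 552 and 542 CPM (0.16, SE 0.03). It shares exon sequence with 2 overlapping same-strand gene models of the GENCODE annotation. Its reads are less certain if the counts used those models, which the sources used here do not state. TM7SF2, a sterol reductase, rose to 122% of control (0.29, SE 0.07). SC5DL, the desaturase now named SC5D, rose from 471 and 455 CPM to 503 and 495 CPM (0.11, SE 0.04). DHCR7, the last reductase of the route, rose from 644 and 715 CPM to 743 and 730 CPM (0.12, SE 0.04). The groups did not overlap in any of these 4, which was also so in 77.7% of all tested genes. Their calls were fragile. CYP51A1 lost its call without KDM1A shRNA library 1 (edgeR adjusted p = 0.065) and TM7SF2 without library 2 (0.069). SC5DL lost its call without either (0.23 and 0.14), and DHCR7 without either of these (0.24 and 0.13) or without control library 1 (0.12). After the rescaling CYP51A1 (−0.03), SC5DL (−0.09) and DHCR7 (−0.08) turned negative. LSS, which closes the sterol rings, did not pass at 474 and 511 CPM against 517 and 521 CPM (0.08, SE 0.04), groups that did not overlap, but passed without control library 2 (0.13, edgeR adjusted p = 1.6e-06), and stood at −0.12 after the rescaling. HSD17B7, a ketoreductase with a near-identical pseudogene copy (−0.13, SE 0.07), and the isomerase EBP (−0.03, SE 0.04), which shares exon sequence with another same-strand gene model, did not pass.

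**Figure D2:**
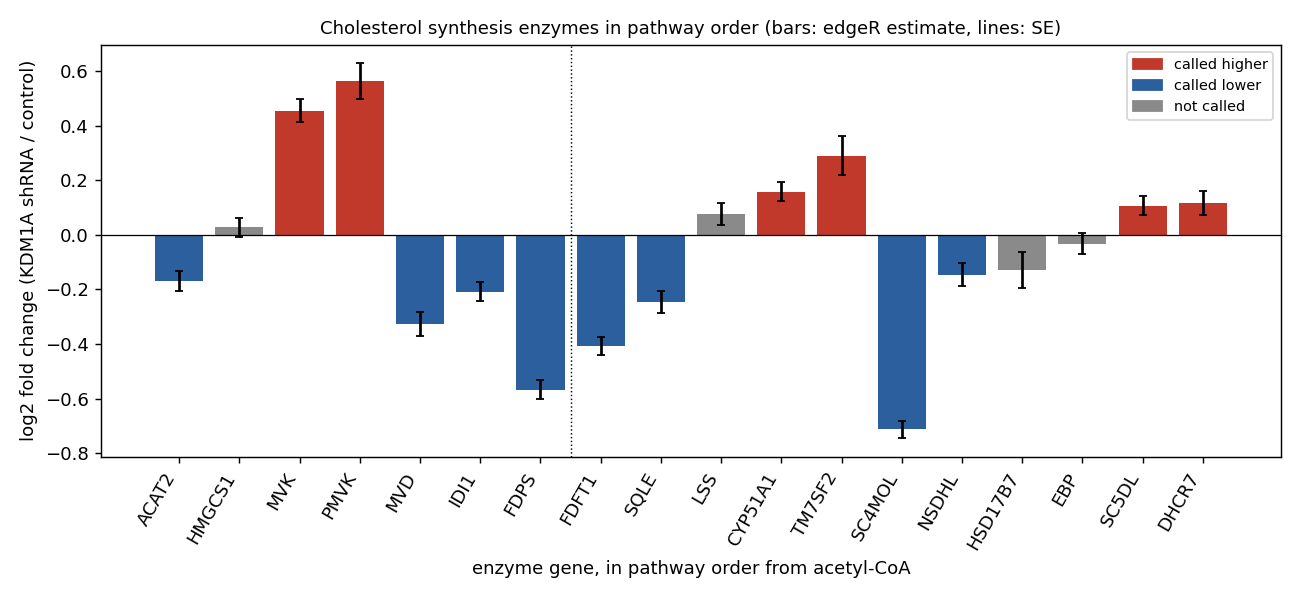
Bars give the edgeR log2 fold change (KDM1A shRNA over control) of the 18 cholesterol synthesis enzymes in pathway order, lines the SE, and colours the call; the dotted line separates the steps up to farnesyl diphosphate from those after it. MVK (0.45) and PMVK (0.56) rise between HMGCS1 (0.03, not called) and MVD (−0.33), FDPS (−0.57), FDFT1 (−0.41) and SQLE (−0.25) form a run of falls, and SC4MOL (−0.71) stands below all others.

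Among the regulators, the inhibitor INSIG1 fell by more than the factors themselves. INSIG1, which retains SCAP and SREBP in the endoplasmic reticulum and is itself an SREBP target (chromosome 7, 155089486 to 155101945, plus strand), had 1491 and 1456 CPM in the controls and 1140 and 1172 CPM with KDM1A shRNA, 78.5% of control (−0.35, SE 0.03, edgeR adjusted p = 5.4e-07). SREBF2, the factor for sterol genes, had 358 and 377 CPM against 340 and 337 CPM (−0.12, SE 0.04, edgeR adjusted p = 0.015). SREBF2 no longer passed once KDM1A shRNA library 1 (0.13) or library 2 (0.19) was left out. SREBF1, the factor for fatty acid genes, had 140 and 166 CPM against 145 and 151 CPM, overlapping groups that did not pass (−0.05, SE 0.06). It passed as lower without control library 1 (−0.16, edgeR adjusted p = 5.9e-05) and after the rescaling (−0.24), and its exons overlap RAI1 on the opposite strand by 120 bases. SCAP had 91.9 and 91.1 CPM against 97.2 and 98.4 CPM and did not pass (0.10, SE 0.04, edgeR adjusted p = 0.081), and stood at −0.096 after the rescaling. Counts of SREBF1 and SREBF2 transcripts do not measure the processed factors, which are made by cleavage of the protein.

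To show what the upstream regions of genes that moved apart have in common, 39 of the 46 members were matched by symbol to RefSeq promoters (GRCh38.p14, 250 bases before to 50 after each start), 2 of them through current symbols. ABCG1, ACAT2, DGAT1, DGAT2, FASN, FDFT1 and SQLE were not matched. The 250 bases before the start are shown for SC4MOL (chr4:165327419-165327668, plus strand) and SCD (chr10:100346983-100347232, plus strand), which fell, for MVK (chr12:109573544-109573793, plus strand), which rose, and for SREBF2 (chr22:41832855-41833104, plus strand). Capitals mark each match to CCAAT, the box bound by NF-Y, a known partner of SREBP, or to TCACNCCAC, a core of the sterol response element, on either strand (ATTGG is CCAAT on the other strand).
SC4MOL: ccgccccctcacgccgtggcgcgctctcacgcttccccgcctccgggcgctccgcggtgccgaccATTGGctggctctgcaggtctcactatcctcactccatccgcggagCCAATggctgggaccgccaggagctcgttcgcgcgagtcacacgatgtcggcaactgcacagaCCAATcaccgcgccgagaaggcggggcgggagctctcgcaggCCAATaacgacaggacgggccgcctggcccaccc
SCD: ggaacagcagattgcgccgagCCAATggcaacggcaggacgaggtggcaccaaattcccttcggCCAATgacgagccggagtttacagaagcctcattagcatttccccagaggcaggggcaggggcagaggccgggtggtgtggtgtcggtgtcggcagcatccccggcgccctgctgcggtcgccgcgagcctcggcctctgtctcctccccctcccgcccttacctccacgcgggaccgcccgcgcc
MVK: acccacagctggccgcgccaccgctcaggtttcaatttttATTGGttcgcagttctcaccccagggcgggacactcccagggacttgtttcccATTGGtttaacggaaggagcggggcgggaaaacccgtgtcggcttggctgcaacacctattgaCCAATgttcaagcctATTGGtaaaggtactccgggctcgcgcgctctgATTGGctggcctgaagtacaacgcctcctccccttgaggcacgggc
SREBF2: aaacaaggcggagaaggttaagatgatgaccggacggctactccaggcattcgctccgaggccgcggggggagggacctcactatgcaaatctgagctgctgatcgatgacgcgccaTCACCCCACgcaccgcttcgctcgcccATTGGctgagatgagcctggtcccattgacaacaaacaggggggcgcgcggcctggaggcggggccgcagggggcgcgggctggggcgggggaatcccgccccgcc

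The SC4MOL window held 4 CCAAT matches, the SCD window 2 and the MVK window 5. Other windows did not follow the direction of change. PMVK, CPT1A and CYP51A1, which rose, had 0, as did ACSL4 and PLIN2, which fell. FDPS and INSIG1, which also fell, had 3 and 1. CCAAT was present in 27 of the 39 matched members (69.2%), against 39.7% of all 27305 genes with a promoter in the table. It was found in 13 of 20 members that fell (65.0%), 6 of 9 that rose (66.7%) and 8 of 10 that did not pass (80.0%). TCACNCCAC was found in SREBF2, ACSL1 and PNPLA2, 3 of 39 (7.7%) against 1.4% of all genes, all with the letters TCACCCCAC. The E-box CACGTG occurred in 7 of 39 (17.9%, all genes 8.8%) and the GC box GGGCGG in 35 of 39 (89.7%, all genes 48.3%). Both strands were searched for each motif, and overlaps between motifs were kept. A gene with several promoter entries counted if any of them held the motif. The 27305 genes outnumber the 14012 tested, so they include genes not tested here, whereas every member was tested. The part of expression in the higher shares of the members was not tested. These are matches of letters in a window and not sites shown to be bound.

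Cholesterol transport genes held the largest fall, at a low level. Of 6 members 4 fell, 1 rose and 1 did not pass. The falls were 66.7% of the group, where 28.8% of all tested genes fell, and the rises 16.7%, where 27.3% rose. ABCG1, a sterol exporter (chromosome 21, 43619799 to 43717354, plus strand), had 30 and 41 control reads and 3 reads in each KDM1A shRNA library. On the reads of both libraries together it stood at 8.67% of control, with an exact 95% interval of 3.08% to 19.8% that covers counting error only (fitted log2 fold change −3.48, SE 0.47, edgeR adjusted p = 1.9e-05, a value that depends on the prior count). ABCA1, which loads cholesterol onto apolipoproteins (chromosome 9, 107543287 to 107690436, minus strand), had 9.52 and 9.93 CPM against 4.55 and 5.31 CPM (−0.98, SE 0.13, edgeR adjusted p = 1.2e-05). Per length both exporters were near the bottom of the list, at 0.472 ± 0.14 RPKM for ABCG1 and 0.935 ± 0.028 RPKM for ABCA1 in the controls. Beside the ABCG1 fall, the summed level of CDKN2A, CDKN2B and MTAP was 23.2 and 25.4 CPM in the controls and 1.17 and 1.32 CPM after knockdown, and the part of this difference in the ABCG1 result was not tested. In bulk libraries fewer cells with a transcript and less of it per cell cannot be told apart.

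The lysosomal pair that hands cholesterol out of endosomes split. NPC1, the membrane protein, fell from 346 and 345 CPM to 284 and 282 CPM (−0.29, SE 0.04). Its exons overlap RMC1 on the opposite strand by 198 bases. NPC2, the soluble partner, rose from 137 and 143 CPM to 172 and 176 CPM (0.31, SE 0.04, edgeR adjusted p = 1.6e-05). STARD4, a cytosolic sterol carrier, was slightly lower (−0.11, SE 0.04, edgeR adjusted p = 0.043). STARD4 did not pass with KDM1A shRNA library 1 (0.20) or library 2 (0.31) left out, in DESeq2 (0.15), with no filter beyond 1 count (0.072) and by library size alone (0.052). CD36, a fatty acid and lipoprotein receptor, had 11 and 11 reads against 6 and 4 and did not pass (−1.08, SE 0.51, edgeR adjusted p = 0.086). At this depth its ratio to control had an exact 95% interval of 19.7% to 103%.

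Fatty acid synthesis and desaturation genes fell in 6 of 9 members, rose in 1 and did not pass in 2 (median −0.17). The falls were 66.7% of the group, where 28.8% of all tested genes fell, and the rises 11.1%, where 27.3% rose. SCD, the desaturase that makes oleate (chromosome 10, 102106990 to 102124583, plus strand), was the gene of the 46 with the most reads. It had 2495 and 2444 CPM in the controls and 1835 and 1809 CPM with KDM1A shRNA, 73.8% of control (−0.44, SE 0.03, edgeR adjusted p = 3.0e-08), and alone made up 18.6% of the net difference summed over the 46 genes. FASN, the synthase that builds palmitate, fell from 1767 and 1889 CPM to 1528 and 1524 CPM (−0.26, SE 0.04). The controls of FASN lay farther apart than its knockdown libraries, and the groups did not overlap, as in 77.7% of all tested genes. FADS1 (862 and 846 CPM against 709 and 719 CPM; −0.26, SE 0.03) and FADS2 (803 and 856 CPM against 738 and 740 CPM; −0.17, SE 0.04), desaturases of polyunsaturated fatty acids encoded at a shared locus on chromosome 11, both fell.

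The enzymes at the entry to fatty acid synthesis changed little. ACLY, which makes cytosolic acetyl-CoA from citrate, was at 92.6% of control (−0.11, SE 0.03, edgeR adjusted p = 0.0088). ACLY missed the threshold with KDM1A shRNA library 1 (0.15) or library 2 (0.19) left out. ACACA, acetyl-CoA carboxylase, had 289 and 260 CPM against 297 and 281 CPM, with overlapping groups, and did not pass (0.08, SE 0.05, edgeR adjusted p = 0.20). It passed as higher without control library 1 (0.15, edgeR adjusted p = 4.7e-06) and as lower after the rescaling (−0.12). The 3 elongases of the list each did something different. ELOVL1, which extends saturated very long chains, rose from 151 and 158 CPM to 199 and 196 CPM (0.35, SE 0.04, edgeR adjusted p = 3.9e-06). ELOVL6, which extends palmitate, fell from 218 and 207 CPM to 177 and 182 CPM (−0.24, SE 0.04). ELOVL5, which extends polyunsaturated chains, had 437 and 424 CPM against 418 and 431 CPM and did not pass (−0.02, SE 0.04). Per length, ELOVL1 made up 34.3% and 36.1% of the summed RPKM of ELOVL1 to ELOVL7 in the controls and 43.0% and 41.7% after knockdown.

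The largest falls among well-expressed members were in genes that activate fatty acids and coat lipid droplets. In this group of 9 members 6 fell, 1 rose and 2 did not pass (median −0.37). The falls were 66.7% of the group, where 28.8% of all tested genes fell, and the rises 11.1%, where 27.3% rose. ACSL4, the acyl-CoA synthetase that prefers arachidonate and is known for supplying the phospholipids oxidised in ferroptosis (chromosome X, 108867473 to 108976632, minus strand), had 663 and 634 CPM in the controls and 322 and 325 CPM after knockdown. The knockdown values were 49.9% of control (−1.003, SE 0.04, edgeR adjusted p = 2.1e-11). PLIN2, the perilipin found on lipid droplets of most cells (chromosome 9, 19108373 to 19149288, minus strand), had 416 and 408 CPM against 214 and 212 CPM, 51.7% of control (−0.95, SE 0.04, edgeR adjusted p = 3.0e-11). PLIN2 lies on the same chromosome arm as CDKN2A and MTAP, whose values are given above, and their part in its fall was not tested. The related coat protein PLIN3 had 219 and 233 CPM against 216 and 226 CPM, overlapping groups that did not pass (−0.03, SE 0.04). It passed as lower without control library 1 (−0.08, edgeR adjusted p = 0.032) and after the rescaling (−0.23). The share of PLIN2 in the summed RPKM of PLIN1 to PLIN5 was 68.6% and 66.8% in the controls and 53.4% and 52.1% after knockdown.

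The other acyl-CoA synthetases fell less than ACSL4. ACSL1 went from 900 and 871 CPM to 676 and 690 CPM (−0.37, SE 0.03) and ACSL3, which sits on nascent lipid droplets, from 617 and 577 CPM to 491 and 505 CPM (−0.26, SE 0.04). Among ACSL1, ACSL3, ACSL4 and ACSL5, the share of ACSL4 in their summed RPKM was 23.1% and 23.0% in the controls and 15.8% and 15.6% after knockdown. The shares of the other 3 were each higher in both knockdown libraries than in either control.

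**Figure D3:**
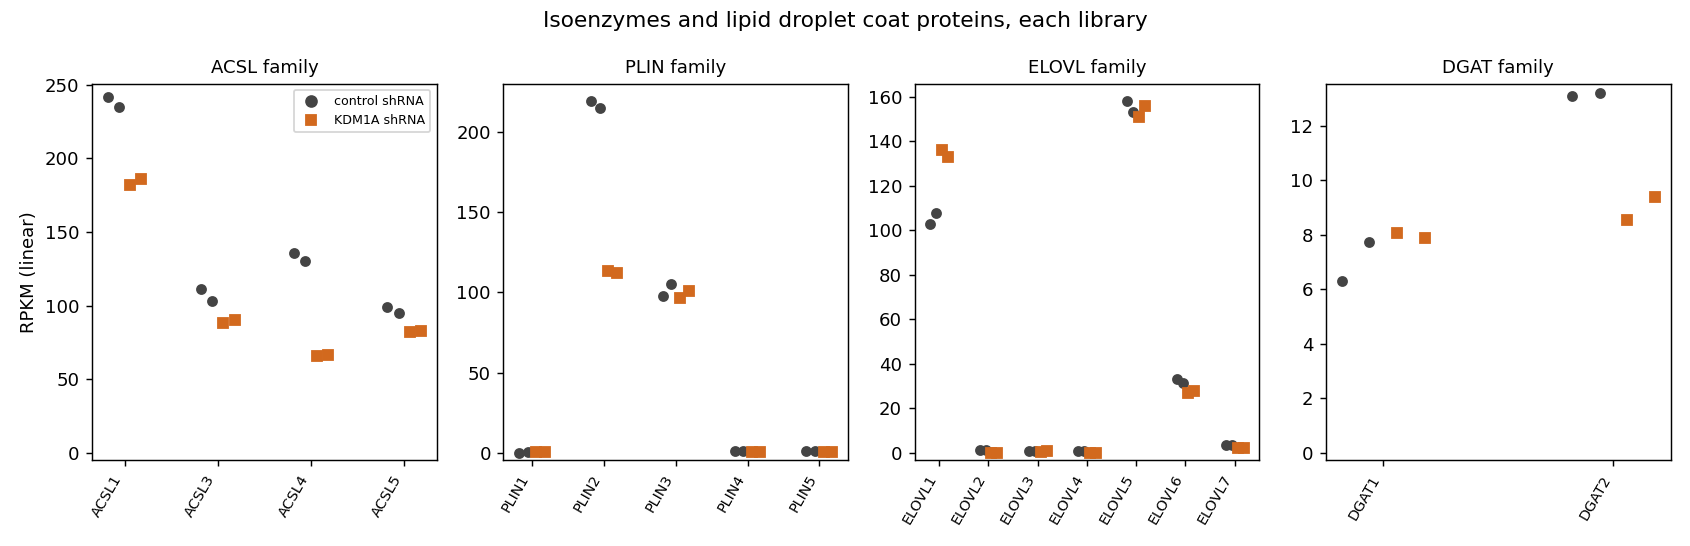
RPKM of each library (linear axis) for the acyl-CoA synthetases, perilipins, fatty acid elongases and diacylglycerol acyltransferases, controls as circles and KDM1A shRNA libraries as squares. ACSL4 and PLIN2 fall to 49.9% and 51.7% of control, PLIN3 and ELOVL5 overlap between groups, and ELOVL1 rises.

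Of the enzymes that make and break down stored triglyceride, DGAT2 and PNPLA2 fell. DGAT2, which adds the last acyl chain of triglyceride (chromosome 11, 75470557 to 75512580, plus strand), fell from 31.6 and 31.8 CPM to 20.5 and 22.6 CPM (−0.55, SE 0.07, edgeR adjusted p = 1.5e-05). DGAT1, which carries out the same reaction, had 23.1 and 28.2 CPM against 29.4 and 28.8 CPM and did not pass (0.18, SE 0.09, edgeR adjusted p = 0.084). DGAT1 passed as higher without control library 2 (0.33, edgeR adjusted p = 0.00019), with the replicate number as a block (0.028) and with no filter beyond 1 count (0.030), and stood at −0.0088 after the rescaling. Its exons overlap HSF1 on the opposite strand by 137 bases. PNPLA2, the lipase ATGL that opens triglyceride breakdown, fell from 81.7 and 95.9 CPM to 64.4 and 66.0 CPM (−0.44, SE 0.07). CPT1A, which admits fatty acids to mitochondria for oxidation (chromosome 11, 68522088 to 68611878, minus strand), had 102 CPM in both controls and 141 and 139 CPM after knockdown, 138% of control (0.46, SE 0.04, edgeR adjusted p = 3.6e-07).

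**Figure D4:**
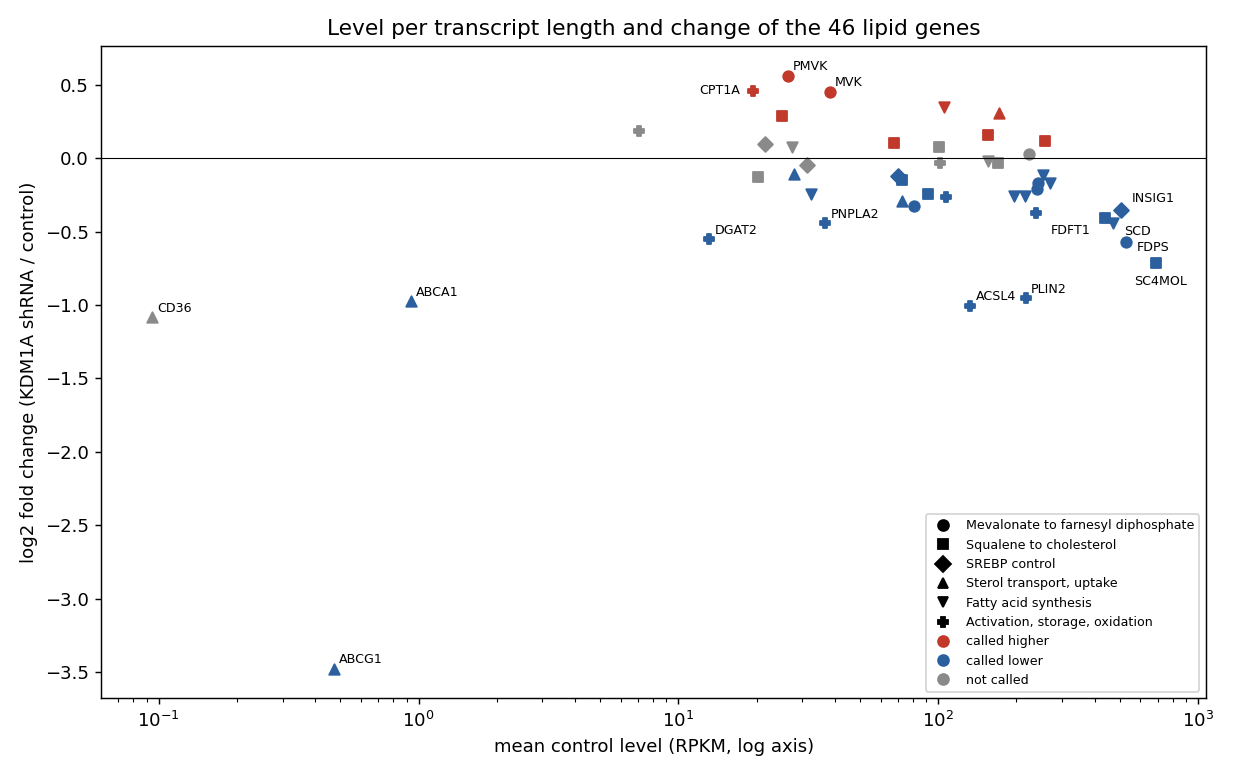
Mean control level of each of the 46 genes in RPKM (log axis) against its log2 fold change, with symbols for roles and colours for calls. SC4MOL, FDPS, INSIG1, SCD and FDFT1, the 5 highest per length in the controls, all fell, while ABCG1, ABCA1 and CD36 lie below 1 RPKM.

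The same 5 genes led the order of levels per length in both groups. SC4MOL, FDPS, INSIG1, SCD and FDFT1 were the first 5 in the controls, at 686, 526, 507, 471 and 439 RPKM, and again after knockdown, at 419, 355, 398, 348 and 331 RPKM, with INSIG1 ahead of FDPS. In the controls FDPS (SD 10.7) and INSIG1 (SD 8.35) were the nearest neighbours in that run, and their means differed by more than either SD. PLIN2 moved from place 13 to 20, ACSL4 from 20 to 26 and PNPLA2 from 32 to 37, whereas NPC2 moved from 16 to 11 and PMVK from 37 to 32. ACAT2 and IDI1, at 241 ± 8.15 and 240 ± 0.20 RPKM in the controls, did not differ beyond their spread.

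Other genes of the same pathways were taken as a list of 75, of which 71 were tested. In it 26 fell (36.6% of those tested, where 28.8% of all tested genes did), 19 rose (26.8%, where 27.3% did) and 26 did not pass. The rises were thus at the background of all genes, and the median log2 fold change was −0.03. The 12 called genes with the smallest p were 7 that fell and 5 that rose. G0S2, the inhibitor of PNPLA2, had 1824 and 1733 control reads and 465 and 530 with KDM1A shRNA (−1.80, SE 0.06, edgeR adjusted p = 1.4e-11), while ABHD5, its activator, rose (0.55, SE 0.05). So the lipase fell together with its inhibitor as its activator rose. ACSS2, which makes acetyl-CoA from acetate, fell from 759 ± 0.30 to 461 ± 2.86 CPM (−0.72, SE 0.03), close to SC4MOL in size. SCD5, the second stearoyl-CoA desaturase, fell to 49.8% of control (−1.004, SE 0.07), VLDLR, a lipoprotein receptor, to 27.8% (−1.84, SE 0.10) and the phosphatidate phosphatase LPIN2 to 70.6% (−0.50, SE 0.04). VLDLR (chromosome 9, 2621182 to 2660056, plus strand), like PLIN2, lies on the same chromosome arm as CDKN2A and MTAP. The part of those genes in its fall was not tested.

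The elongases ELOVL2 and ELOVL4 had the largest falls of this list. ELOVL2 had 155 and 139 reads against 4 and 10, 4.89% of control (exact 95% interval 2.64% to 8.33%). ELOVL4 had 67 and 51 reads against 1 and 0, 0.869% of control (exact 95% interval 0.0218% to 4.94%). Both were minor elongases in the controls, ELOVL2 at 0.483% and 0.481% and ELOVL4 at 0.276% and 0.233% of the summed RPKM of the family. They moved with CDKN2A, CDKN2B and MTAP, whose part in these falls was not tested. Genes that rose were LPIN3 (0.68, SE 0.06), the fatty acid transporter SLC27A4 (0.63, SE 0.05), the liver X receptor NR1H3 (0.63, SE 0.07) and the cholesterol esterifying enzyme SOAT1 (0.45, SE 0.05). NR1H3 rose from 21.7 ± 0.48 to 33.6 ± 0.32 CPM while ABCA1 and ABCG1, known targets of liver X receptors, fell. THRSP, with 2 reads in control library 1 and 0 in the other libraries, was not tested, nor were SOAT2, FABP4 and FABP5. A count of 0 allows up to 3 counts, which is 0.112 to 0.125 CPM in these libraries.

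**Figure D5:**
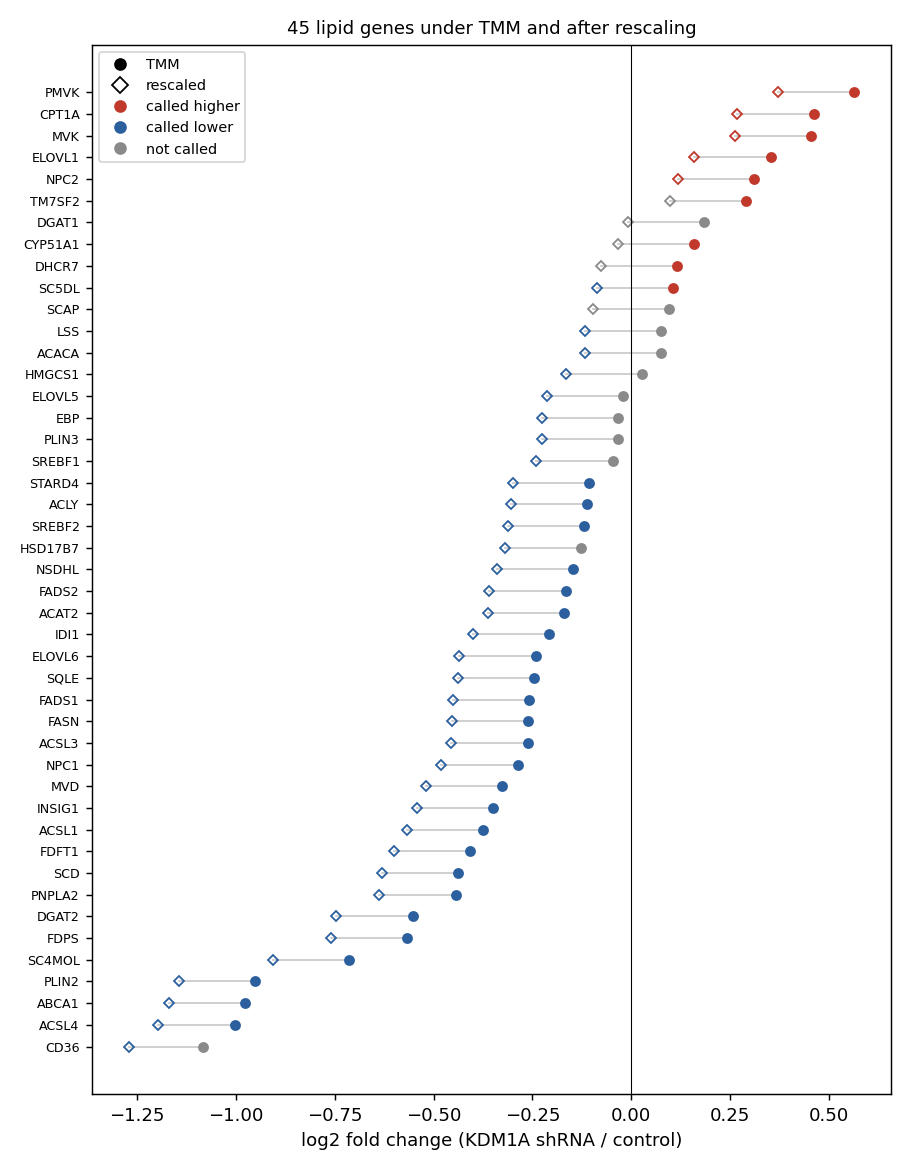
Log2 fold change of 45 of the 46 genes (ABCG1, at −3.48, is left out for scale) with TMM scaling (filled circles) and after the rescaling to 32 marker genes of the line (open diamonds), coloured by call. PMVK, CPT1A, MVK, ELOVL1 and NPC2 stay higher under both, and HMGCS1, LSS, ACACA, SCAP, DGAT1, CYP51A1, SC5DL and DHCR7 cross 0.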

How the data were processed

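RNA was measured in 4 libraries of MDA-MB-231 cells, 2 with control shRNA and 2 with KDM1A shRNA, grouped by their titles. The deposited values are raw read counts per gene symbol. Per the submitters' processing notes, the authors used CASAVA 1.8.2, TopHat2 2.0.8b and HTSeq with hg19; strand setting and annotation version are not given in the sources used here. HTSeq's summary lines, 38.9% to 41.0% of each file's total, were left out.

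All genes were fitted with edgeR 4.0.16 (R 4.3.3): TMM, filterByExpr defaults (minimum count 10, total 15), quasi-likelihood F-test on group, Benjamini-Hochberg adjustment over 14012 genes, threshold 0.05. SE is the absolute log2 fold change over the square root of F. CPM uses TMM-scaled library sizes, and RPKM adds the exon length of the GENCODE canonical transcript (GRCh37), so it depends on that choice of transcript. An exact permutation test of 2 against 2 cannot go below 0.333 two-sided. On simulated counts (13841 genes tested, 200 changed) the fit recovered 64% of 1.25-fold, 84% of 1.5-fold, 92% of 2-fold and 100% of 4-fold changes, with 2 false calls of 172. Far more genes were called in the data, 56.1% of those tested, so these rates need not carry over to them. The members and lists were chosen with earlier results of these data known. Every member could be named; from the other lipid genes the 12 called ones with the smallest p were named, plus those with reads at 0, and ELOVL2 and ELOVL4 are among the 12. The 12 alternatives were RLE, library size alone, a rescaling, 2 other filters, DESeq2 1.42.0, limma-voom 3.58.1, a replicate block and each library left out. Replicates of a group differed by more than counting noise (chi-square per degree of freedom 3.97 in controls, 1.60 in KDM1A shRNA).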

Additional observations from a re-analysis of the deposited data

How the results depend on the processing

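Of the 26 members called lower, 21 were called lower in every alternative that tested them (ABCG1 in 11, since the filter at a mean of 5 CPM removed it, the others in 12), and of the 9 called higher, 5 stayed higher in all 12. ACAT2, NSDHL, SREBF2, STARD4, ACLY, CYP51A1, TM7SF2, SC5DL and DHCR7 lost a call in at least 1. After the rescaling to marker genes of the line, the members numbered 5 higher, the other lipid genes 12 higher and 42 lower, and all genes 1817 higher and 7145 lower. The members called lower numbered 36 there, and this downward shift could not have undone a fall. HMGCS1 (−0.17), LSS (−0.12), CYP51A1 (−0.034), SC5DL (−0.086), DHCR7 (−0.076) ACACA (−0.12), SCAP (−0.096) and DGAT1 (−0.0088) changed sign, by construction of the shift. With each library left out in turn, 21 to 28 members were lower and 6 to 11 higher, 2832 to 4041 genes in all were higher and 3146 to 4168 lower. With the replicate block, 10 members were higher and 26 lower, where 3978 of all 14012 tested genes were higher and 4164 lower. Same-numbered libraries deviated together with r of 0.0111 across all tested genes and 0.0384 across those with a mean of at least 5 CPM. A correlation over so many genes cannot show whether a shared batch moved some of them. Counts under the other settings stayed within 1.5 times the reported ones. Reads limit ABCG1 and CD36, and having 2 libraries per group limits the smallest changes.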
